A study of Homo sapiens with 3 samples.

Results

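The genes described here are 10 genes that mark mesenchymal cells: the transcription factors TWIST1, TWIST2, SNAI1, SNAI2, ZEB1, ZEB2, PRRX1 and PRRX2, and the platelet-derived growth factor (PDGF) receptors PDGFRA and PDGFRB. They were chosen by name as 5 pairs of related genes, and all 10 were found among the 32732 genes that the 3 feature tables share. They were followed through 3 single-cell RNA sequencing libraries, 1 per group, all of WT genotype per the labels. At day 0 these were BJ cells (human skin fibroblasts kept as an established line), and at days 3 and 5 FiN cells, whose cell type label is induced neurons. By the labels' protocol, BJ cells grew on poly-D-lysine in DMEM with 10% serum, were switched to an induction medium with 10 µM forskolin, an activator of adenylyl cyclase, and on day 2 to a maturation medium that also held forskolin. Forskolin was removed on day 5, all 3 groups carry the treatment label reprogramming, and the sources used here do not say if the day 0 cells met forskolin. Nuclei suspensions are named in the protocols of days 0 and 3 and dissociated cells, with a 3′ RNA kit, in that of day 5. Library steps of all 3 name a kit for chromatin accessibility (ATAC), although the files hold UMI counts of genes, so it is not settled how the day 0 and day 3 counts were made. With 1 library per group, differences in preparation cannot be told apart from either step in time.

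TWIST, SNAI, ZEB and PRRX proteins bind DNA and are known for holding embryonic and adult connective tissue cells in a mesenchymal state. SNAI and ZEB proteins repress epithelial genes such as E-cadherin through E-box motifs, and TWIST proteins pair with other basic helix-loop-helix factors. PDGF receptors are tyrosine kinases at the cell surface through which PDGF ligands drive fibroblasts and mural cells to divide and migrate; ZEB1 and ZEB2 are also known from the developing nervous system.

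After filtering, 16773, 11454 and 9219 cells remained at days 0, 3 and 5, with a median of 14039, 1324 and 4374 UMIs (counted RNA molecules). Levels are CPM, a gene's UMIs summed over the cells of a library and scaled to the library's total on the shared genes, with exact Poisson 95% intervals in parentheses. Each comparison is between single libraries, so no test was run, and intervals cover counting error only. A gene is called higher or lower where its CPM ratio is at least 2, the larger CPM at least 10 and the intervals separate. The libraries also differed in the share of UMIs on MALAT1, a nuclear RNA (3.14%, 21.6% and 7.35%), on mitochondrial genes (6.45%, 0.745% and 5.01%) and on ribosomal protein genes (17.4%, 4.44% and 2.17%). The gap was widest between days 0 and 3 for MALAT1 and mitochondrial genes, and between days 0 and 5 for ribosomal protein genes. The part of these differences in the results was not tested. The summed level of 12 fibroblast markers was 4980, 5782 and 342 CPM, and that of 14 pan-neuronal markers 94.2, 96.1 and 4649 CPM, so the day 3 library, though labelled as induced neurons, kept fibroblast markers and lacked most neuronal ones. Between 27 and 63 cell barcodes were shared by any 2 libraries.

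From day 0 to day 3 the genes moved in both directions. PDGFRA, TWIST1, ZEB2 and PRRX1 were higher at day 3, while SNAI1, PRRX2 and TWIST2 were lower, and SNAI2, ZEB1 and PDGFRB did not pass the rule. In all, 4 of 10 genes were higher and 3 lower, where 37.6% and 19.1% of all 10431 tested genes were called in these directions. The split of all calls against day 0 depends on the scaling: at day 3, 66.3% of all called genes were higher as reported, 23.8% with TMM scaling, 35.8% with the median of ratios, 55.6% without mitochondrial and ribosomal protein genes and 77.1% without MALAT1 in the totals. From day 3 to day 5, 7 of the 9 genes at 10 CPM or more in a library were lower and 1 (ZEB1) was higher, beside 28.7% lower and 36.5% higher among 12623 tested genes. Day 5 against day 0 gave 8 lower and 2 higher (ZEB1 and ZEB2), beside 26.0% and 49.1% of 12084 tested genes, and the share of higher calls over all genes went from 65.4% to 43.1% with TMM and 52.6% with the median of ratios. The median log2 ratio of the 10 genes was -0.02 for day 3 over day 0, against 0.49 over all tested genes, and -4.52 for day 5 over day 0, against 0.93. From day 3 to day 5 the median of all 10 genes, with SNAI1 included though it was not tested, was -5.37, against 0.16.

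**Figure D1:**
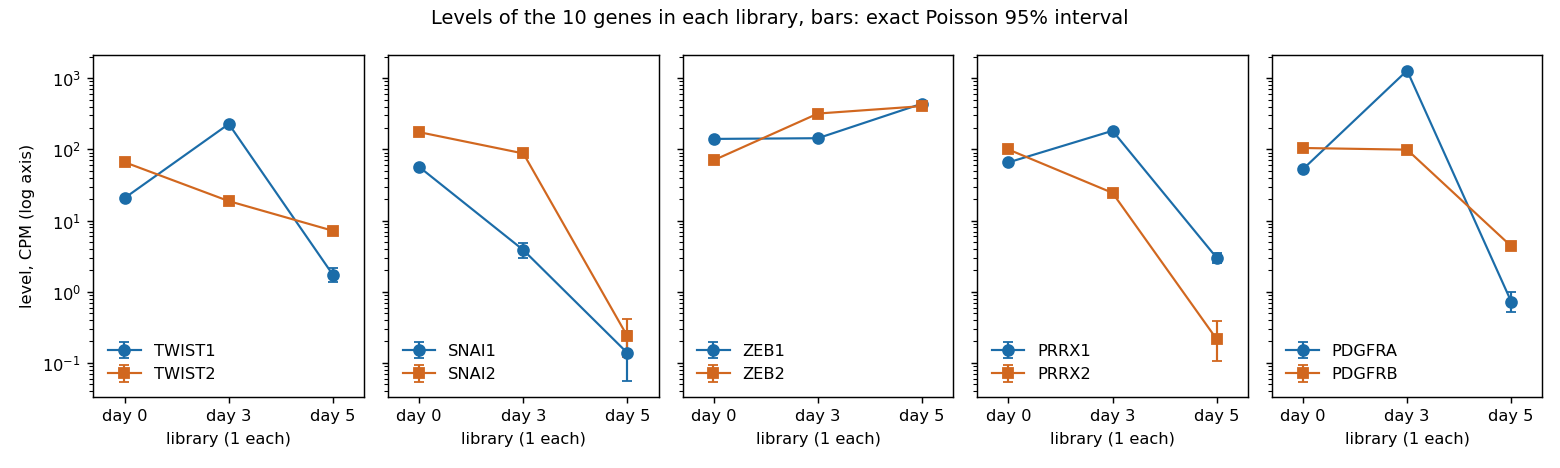
Level of each gene in CPM (log axis) in the day 0, day 3 and day 5 libraries, 1 panel per pair, with exact Poisson 95% intervals as bars. Within 3 pairs (TWIST, PRRX, PDGFR) the first gene is higher and the second lower or near its day 0 level at day 3, and only ZEB1 and ZEB2 stay above 100 CPM at day 5.

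TWIST1 (chr7:19020991-19117672, minus strand, GRCh38 in GENCODE 29) and TWIST2 (chr2:238848032-238910543, plus strand) encode basic helix-loop-helix factors. TWIST1 stood at 20.7 CPM (20.2 to 21.3) at day 0, 227 (221 to 234) at day 3 and 1.73 (1.39 to 2.13) at day 5. It was thus 10.97-fold higher at day 3 than at day 0 (95% counting interval 10.5 to 11.4) and then 132-fold lower at day 5 (107 to 164). TWIST2 ran the other way over the first step: 66.0 CPM (65.0 to 67.0) at day 0, 18.8 (16.8 to 20.8) at day 3 and 7.19 (6.47 to 7.96) at day 5. Its falls were 3.52-fold (3.16 to 3.92) and then 2.61-fold (2.25 to 3.03), and no 2 libraries of either gene had overlapping intervals. TWIST1 made up 23.9% of the pair's UMIs at day 0, 92.4% at day 3 and 19.4% at day 5. A gene annotated on the opposite strand within TWIST1, AC003986.2, had 0, 10.7 and 0.0393 CPM, and the sources used here do not say if strand was used in counting.

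SNAI1 (chr20:49982999-49988886, plus strand) and SNAI2 (chromosome 8) encode the Snail and Slug zinc finger repressors. SNAI1 stood at 56.6 CPM (55.6 to 57.5) at day 0, 3.85 (3.01 to 4.85) at day 3 and 0.137 (0.0553 to 0.283) at day 5. The day 3 level was 14.7-fold below day 0 (11.7 to 18.8), and the day 5 level rests on 7 UMIs; the step between them lies under the 10 CPM minimum and was not called. SNAI2 had 175 CPM (173 to 176), 87.7 (83.5 to 92.0) and 0.236 (0.122 to 0.412) at days 0, 3 and 5, the last from 12 UMIs. Its day 3 ratio, 1.99-fold lower (1.90 to 2.09), lay just short of the rule, and a stricter cell filter, the scalings by TMM and by the median of ratios, and leaving mitochondrial and ribosomal protein genes out of the totals put it past 2-fold. Dropping the day 0 clusters poor in MALAT1 did so as well. From day 3 to day 5 it was 372-fold lower (212 to 721).

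ZEB1 (chr10:31318495-31529814, plus strand) and ZEB2 (chr2:144364364-144524583, minus strand) encode large repressors with 2 zinc finger clusters and a homeodomain, and were the exceptions to the loss at day 5. ZEB1 stood at 140 CPM (139 to 142) at day 0, 144 (138 to 149) at day 3 and 439 (433 to 445) at day 5. Days 0 and 3 overlap, and their log2 ratio of 0.03 changed sign with the scaling, from -1.17 with TMM, which calls it lower, to 0.34 without MALAT1 in the totals. At day 5 ZEB1 was 3.06-fold above day 3 (2.94 to 3.19). ZEB2 already stood higher at day 3: 70.5 CPM (69.4 to 71.5) at day 0, 319 (311 to 327) at day 3 and 405 (399 to 411) at day 5. Its first step was 4.52-fold (4.39 to 4.66), called under every alternative tried but TMM, where the log2 ratio was 0.98, and its second step, 1.27-fold (1.23 to 1.31), was not called.

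Both ZEB genes are long, with 202670 and 135162 bases of intron, and are the only members above 100000 bases. Genes that long were higher at day 5 as a class: 74.0% of 2909 such genes against day 3 and 84.0% of 2879 against day 0, with median log2 ratios of 2.37 and 3.48. ZEB1 lay below both medians, at 1.61 and 1.65, and so did ZEB2, at 0.35 and 2.52. The sources used here do not say if reads in introns were counted, and the part of intron length in the ZEB levels was not tested. Day 5 over day 0 ZEB1 was also not called with TMM (log2 0.51) or the median of ratios (0.98), whereas ZEB2 stayed called under each alternative. Antisense neighbours were low beside them: ZEB1-AS1 had 4.55, 22.5 and 18.3 CPM and ZEB2-AS1 0.130, 3.15 and 0.982 CPM.

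Promoter sequences are shown for the ZEB pair, which kept its RNA at day 5, and for the PDGF receptor pair, which parted at day 3. They span 250 bases before to 50 after an annotated start (RefSeq, GRCh38.p14), are written 5′ to 3′ on the gene's strand, and were matched for 7 of the 10 genes. Capitals mark CACCTG or its reverse complement CAGGTG, an E-box of the kind that SNAI and ZEB proteins bind, and TGACG or its reverse complement CGTCA, a half-site of the cAMP response element. The windows are chr10:31318966-31319265 (plus strand, the third of 7 ZEB1 starts), chr2:144520070-144520369 (minus strand), chr4:54229043-54229342 (plus strand, the first of 2 PDGFRA starts) and chr5:150155796-150156095 (minus strand).
ZEB1 start 3: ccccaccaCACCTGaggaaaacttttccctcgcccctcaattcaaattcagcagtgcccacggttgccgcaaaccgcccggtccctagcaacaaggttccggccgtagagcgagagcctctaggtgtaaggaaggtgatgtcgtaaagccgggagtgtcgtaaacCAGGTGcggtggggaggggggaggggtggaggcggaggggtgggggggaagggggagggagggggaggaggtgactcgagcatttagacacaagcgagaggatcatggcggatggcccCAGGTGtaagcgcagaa
ZEB2: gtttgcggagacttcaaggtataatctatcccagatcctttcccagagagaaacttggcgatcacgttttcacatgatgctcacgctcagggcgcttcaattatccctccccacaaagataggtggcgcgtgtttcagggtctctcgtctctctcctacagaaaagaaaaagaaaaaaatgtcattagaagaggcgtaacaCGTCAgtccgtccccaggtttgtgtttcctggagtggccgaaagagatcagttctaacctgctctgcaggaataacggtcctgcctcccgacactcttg
PDGFRA start 1: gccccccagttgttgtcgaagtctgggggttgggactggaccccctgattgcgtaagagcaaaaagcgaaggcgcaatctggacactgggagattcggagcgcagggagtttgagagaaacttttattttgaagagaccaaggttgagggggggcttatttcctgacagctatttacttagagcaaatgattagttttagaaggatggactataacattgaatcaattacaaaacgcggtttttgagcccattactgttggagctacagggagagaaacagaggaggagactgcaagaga
PDGFRB: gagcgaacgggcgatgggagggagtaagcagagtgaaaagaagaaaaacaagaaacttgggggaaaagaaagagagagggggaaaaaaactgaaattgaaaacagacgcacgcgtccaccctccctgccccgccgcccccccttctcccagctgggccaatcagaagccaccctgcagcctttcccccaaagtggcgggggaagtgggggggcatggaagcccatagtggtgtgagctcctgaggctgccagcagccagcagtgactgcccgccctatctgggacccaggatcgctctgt
ZEB1 start 3 holds 3 E-boxes of this form, where 20.6% of 35116 promoter windows of the same length hold at least 1. Of the other 6 ZEB1 windows, 1 holds 1 E-box, 1 holds 2 half-sites and 4 hold neither. ZEB2 holds 1 half-site, a motif found in 24.6% of windows, and the full element TGACGTCA, found in 1.85%, is in none of the 14 windows of these genes. The windows of PDGFRA, PDGFRB, PRRX1, PRRX2 and TWIST2 hold none of these letters, which says only that they are not in these 300 bases.

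PRRX1 (chr1:170662728-170739419, plus strand) and PRRX2 (chr9:129665641-129722674, plus strand) encode paired-related homeodomain factors of limb and craniofacial mesenchyme. PRRX1 stood at 65.6 CPM (64.6 to 66.6), 182 (176 to 189) and 3.00 (2.55 to 3.52) at days 0, 3 and 5. It was 2.78-fold higher at day 3 (2.68 to 2.88) and 60.7-fold lower from there to day 5 (51.6 to 71.9). The day 3 value was carried by 1 cluster: the cells led by RORB, GNAO1 and SUV39H1, 22.0% of the library, had 659 CPM and 61.4% of all PRRX1 UMIs, while the other 3 clusters had 68.3 to 107 CPM. Without that cluster, an alternative chosen after seeing the data, the log2 ratio to day 0 fell from 1.48 to 0.37 and the call was lost, as it was with TMM (0.28), the median of ratios (0.67) and the strict cell filter (0.58). The cluster was shallower than the rest, with a median of 990 UMIs against 1324 in the library, and its MALAT1 share was 12.6%, against 23.0% to 25.5% in the others. PRRX2 fell at each step, from 99.6 CPM (98.4 to 101) to 24.5 (22.3 to 26.8) and 0.216 (0.108 to 0.387), the last from 11 UMIs, a 4.07-fold (3.71 to 4.47) and then a 113-fold (62.7 to 229) difference.

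PDGFRA (chr4:54229097-54298247, plus strand) had the largest rise and the largest fall of the 10 genes. It stood at 52.7 CPM (51.8 to 53.7) at day 0, 1281 (1265 to 1297) at day 3 and 0.727 (0.512 to 1.00) at day 5. At day 3 only 25 of the shared genes had a higher level, and PDGFRA was 24.3-fold above day 0 (23.8 to 24.8). The mean cell held 2.09 PDGFRA UMIs at day 3 and 0.775 at day 0, so the count was higher even without scaling, in cells whose median total was lower. From day 3 to day 5 it was 1763-fold lower (1278.5 to 2504), down to 37 UMIs. PDGFRB (chr5:150113837-150155872, minus strand) did not share that peak: 105 CPM (103 to 106) at day 0, 99.04 (94.6 to 104) at day 3 and 4.36 (3.80 to 4.97) at day 5. Its first log2 ratio, -0.08, changed sign with the scaling, from -1.28 with TMM, where it is called lower, to 0.53 as a mean of per-cell CPM, and its day 5 level was 22.7-fold below day 3 (19.8 to 26.2). PDGFRA made up 33.5% of the receptor pair's UMIs at day 0, 92.8% at day 3 and 14.3% at day 5.

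**Figure D2:**
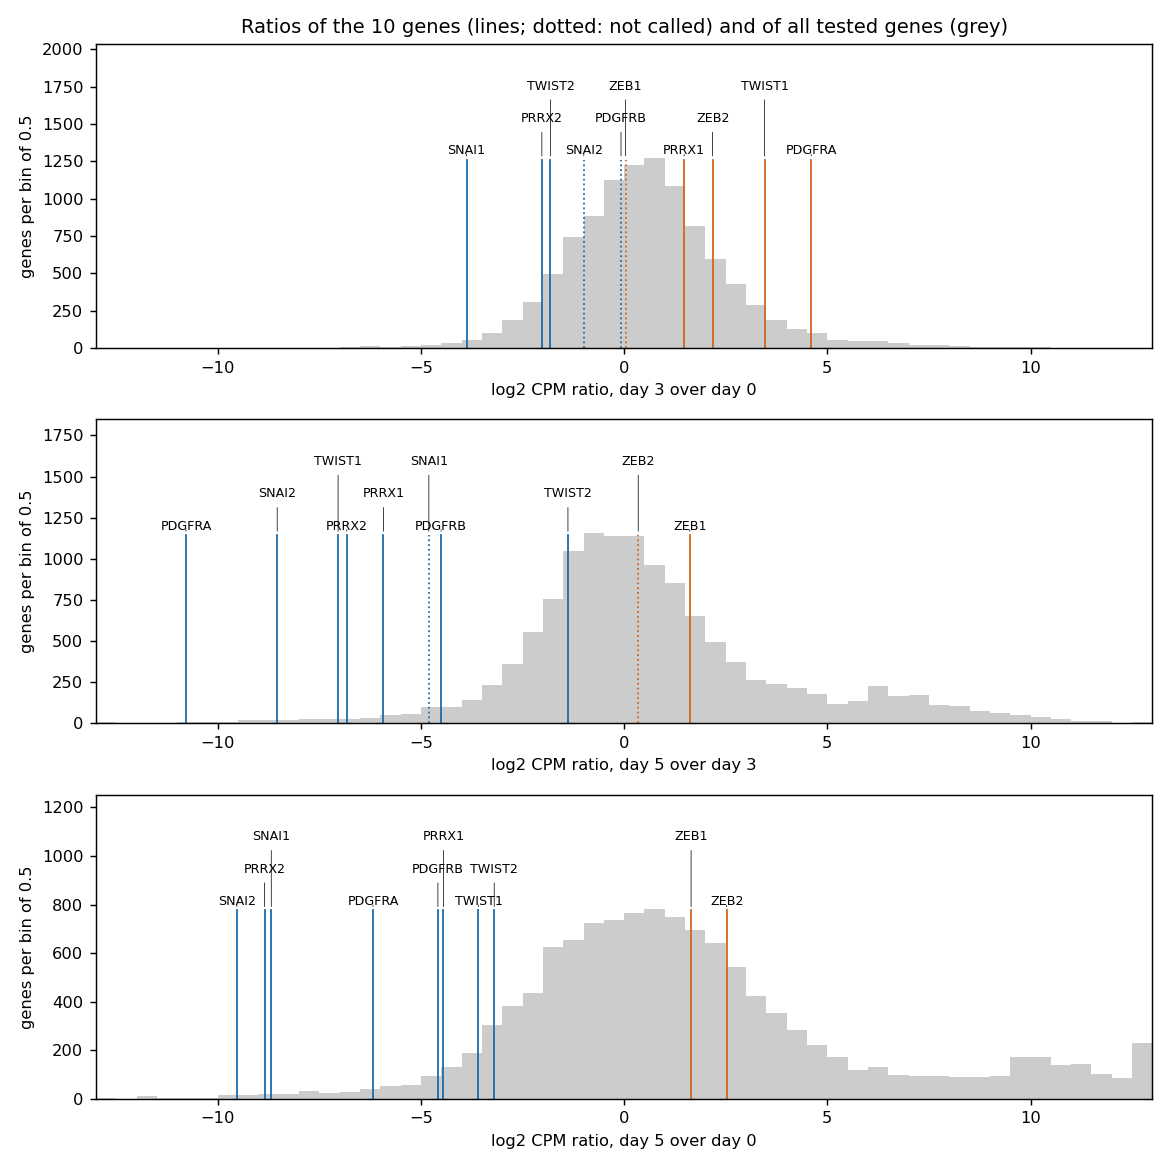
Log2 CPM ratio of each of the 10 genes (lines, dotted where not called) over a histogram of all tested genes (grey, genes per bin of 0.5, with more extreme values placed in the end bins), for 3 comparisons. At day 3 the genes lie on both sides of the bulk of genes, from -3.88 (SNAI1) to 4.60 (PDGFRA), and against day 0 at day 5 all but ZEB1 and ZEB2 lie at -3.20 or below.

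In single cells, shares with a UMI were compared after thinning each cell to 1000 UMIs, which left out 2388 cells at day 0, 2999 at day 3 and none at day 5. PDGFRA was found in 4.03% of cells (3.72 to 4.37, exact binomial 95% interval) at day 0, 68.1% (67.0 to 69.0) at day 3 and 0.0651% (0.0239 to 0.142) at day 5, against 36.1%, 74.9% and 0.347% unthinned. PDGFRA UMIs were thus found in most thinned day 3 cells, and 35.9% of them held at least 2. The day 0 and day 3 files were filtered to cells before deposit, so they hold no empty droplets from which to measure free RNA, and its part in the shares of these days was not tested. TWIST1 went from 1.74% to 20.4% and 0.217% (21.7%, 28.9% and 0.835% unthinned). PRRX1 went from 5.16% to 14.0% and 0.239% (40.9%, 21.6% and 1.30% unthinned), where the unthinned order of days 0 and 3 is that of their depth.

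ZEB1 was in 15.3%, 13.1% and 30.3% of thinned cells and ZEB2 in 6.32%, 25.4% and 29.05% (62.5%, 19.0% and 67.4%, and 45.1%, 35.6% and 68.9% unthinned). The ZEB genes were the members seen in over 1% of thinned cells at day 5; the other 8 were in 0.0108% (SNAI1) to 0.542% (TWIST2). SNAI2 went from 11.1% to 8.46%, PDGFRB from 6.71% to 9.49%, PRRX2 from 8.61% to 2.39%, TWIST2 from 5.71% to 1.81% and SNAI1 from 4.17% to 0.308% between days 0 and 3 (unthinned 51.9% to 12.7%, 45.7% to 13.04%, 47.5% to 3.82%, 43.8% to 3.00% and 35.5% to 0.620%). Without the 2 day 0 clusters poorest in MALAT1, described with the clusters, the day 0 shares of PDGFRB and ZEB1 were 9.85% (9.26 to 10.5) and 12.9% (12.3 to 13.6), near their day 3 shares, so neither difference remained. Cells without a UMI of any of the 10 genes made up 11.5% of thinned cells at day 3, against 49.0% at day 0 and 49.4% at day 5. These shares rest largely on single members, as PDGFRA alone was in 68.1% of thinned cells at day 3 and the ZEB genes gave most of the detections at day 5.

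**Figure D3:**
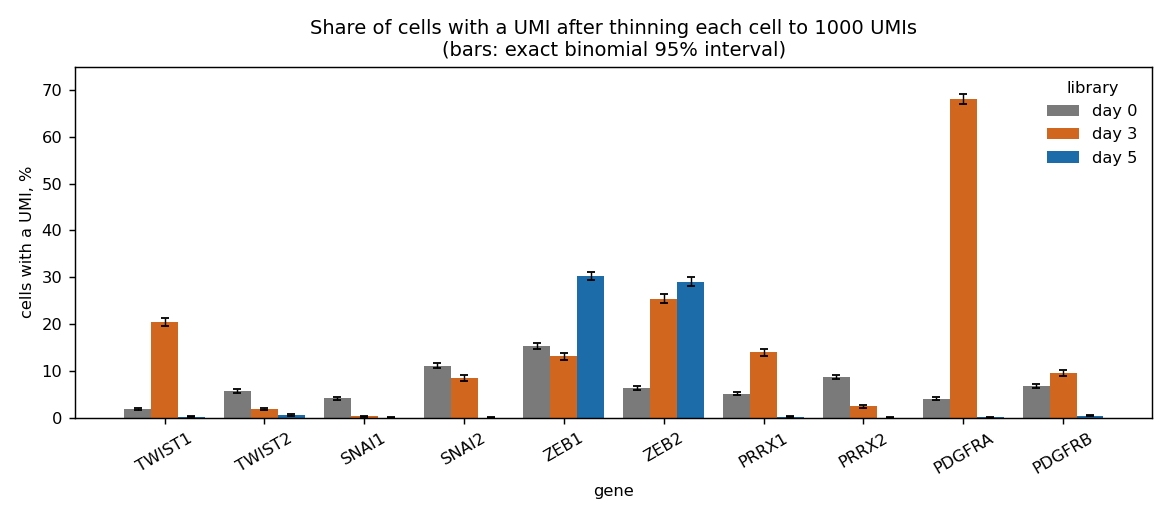
Share of cells with at least 1 UMI of each gene (%, bars with exact binomial 95% intervals) in each library after thinning to 1000 UMIs per cell. PDGFRA stands at 68.1% at day 3, and at day 5 the bars of all genes but ZEB1 and ZEB2 are under 1%.

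Genes seen in at least 5% of thinned cells at day 3 mostly fell together in cells about as often as their single shares give. PDGFRA and TWIST1 were both present in 13.9% of cells, where the product of their shares is 13.9%, and PDGFRA and PDGFRB in 6.45%, where it is 6.46%. ZEB2 and PRRX1 were together in 4.80%, 1.35 times the product of 3.55%, and both are highest in the cluster led by RORB. ZEB1 and ZEB2 shared 9.56% of cells at day 5, beside a product of 8.79%. These are descriptions of sparse counts.

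Across the 4 clusters of the day 3 library PDGFRA varied little, from 1049 to 1367 CPM, and so did ZEB1, from 136 to 146 CPM. TWIST1 ranged from 126 CPM in the cells led by GTSE1 and CDC25C, in which all 8 cycling markers were 2-fold above the rest, to 296 CPM in those led by RORB, where ZEB2 had 517 CPM against 276 to 294 elsewhere and PDGFRB 57.2 against 98.9 to 109. At day 0, 2 clusters led by RAB13 made up 18.99% and 24.7% of cells, with median UMIs of 2297 and 974 and MALAT1 shares of 0.109% and 0.292%. They had little receptor RNA, 5.66 and 7.16 CPM of PDGFRA and 5.55 and 13.2 CPM of PDGFRB against 36.7 to 66.2 and 85.0 to 235 in the other clusters, and 263 and 216 CPM of ZEB1 against 132 to 202. That ZEB1 excess lay mostly in a small group: at a Leiden resolution of 1.0, 789 cells led by RAB13 and CCND2 had 959 CPM of ZEB1, while the other groups led by RAB13, of 2967 and 3545 cells, had 201 and 173 CPM. Without both clusters PDGFRA was in 5.79% of thinned day 0 cells, still far under the day 3 share, and no count of called genes moved by over 1.5 times.

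The day 5 library split into 11 clusters, of which 5 were neuron-like (2939 cells, in clusters where at least 4 of 14 pan-neuronal markers were 2-fold over the other cells, a limit chosen once the clusters were known). ZEB1 stood at 623 CPM (612 to 635) in the neuron-like cells and 330 (324 to 337) in the other 6280 cells, while ZEB2 stood at 340 (332 to 349) and 443 (436 to 451). Pooled over cells, ZEB1 was thus 1.89-fold higher and ZEB2 at 0.768 of the other cells, but single clusters crossed over. ZEB1 ran from 303 to 995 CPM over the neuron-like clusters and from 88.3 to 629 over the others, and ZEB2 from 99.4 to 494 and from 259 to 732. The largest of the other clusters, with 2734 of the 6280 cells, was low in both genes, at 170 and 259 CPM. ZEB1 peaked at 995 CPM in the cluster led by VXN, EBF2 and NEUROD4, genes known from young neurons, and was lowest among clusters of over 100 cells at 170 in the cluster led by CATSPERB, DGKG and SERPINI2. ZEB2 peaked at 732 CPM in the cluster led by SMOC1, FBXO32 and PAX3 and was lowest at 99.4 in that led by RELN, and the ZEB1 share of the pair's UMIs ran from 39.6% to 75.8% among clusters of over 100 cells.

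What remained of the other 8 genes at day 5 was unevenly placed. The cluster led by CATSPERB, 29.7% of cells, held 76.1% of TWIST1 UMIs, 70.5% of TWIST2 and 57.7% of PDGFRB, at 4.17, 16.1 and 7.97 CPM. Of 37 PDGFRA UMIs, 12 lay in the cluster led by SLC6A5 and PAX8 and 9 in that led by VXN, so 22 were in neuron-like cells, 1.16 CPM against 0.469. In the 325 cells led by RELN all 8 genes were at 0 UMIs. Barcodes of 500 to 1000 UMIs, below the cell call at day 5, held 1.97 CPM of TWIST1, 0.528 of SNAI2, 0.444 of PRRX2 and 0.361 of SNAI1, with intervals that overlap those of the called cells. PDGFRA, at 0.389 (0.213 to 0.652), also overlapped, so none of these 5 genes stood above the low barcodes over the cells as a whole. TWIST1 stood above them (1.54 to 2.49) in the cluster led by CATSPERB (3.23 to 5.29). PDGFRA did so in the clusters led by SLC6A5 (0.688 to 2.33) and VXN (1.68 to 6.98), on the 12 and 9 UMIs named above. These barcodes held more RNA of the neuronal genes STMN2 (539 CPM) and TUBB3 (817) and the cycling gene MKI67 (213) than the called cells (337, 188 and 55.5). Whether these barcodes are free RNA, cells or both was not tested, nor was the part of free RNA in the day 5 values. TWIST2, PRRX1 and PDGFRB stood at 2.36, 1.03 and 2.67 CPM in the low barcodes, below the cells with separate intervals. OLIG1 and OLIG2, markers of the PDGFRA-bearing oligodendrocyte precursors, were at 0 UMIs in all 3 libraries. Other markers of these precursors differed: LHFPL3 and PCDH15 stood at 0 UMIs at day 3 and at 152 and 36.9 CPM at day 5. CSPG4 fell, from 25.5 CPM at day 0 to 17.7 and 2.10 at days 3 and 5. The summed level of 8 such markers was 25.7, 17.7 and 196 CPM at days 0, 3 and 5.

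**Figure D4:**
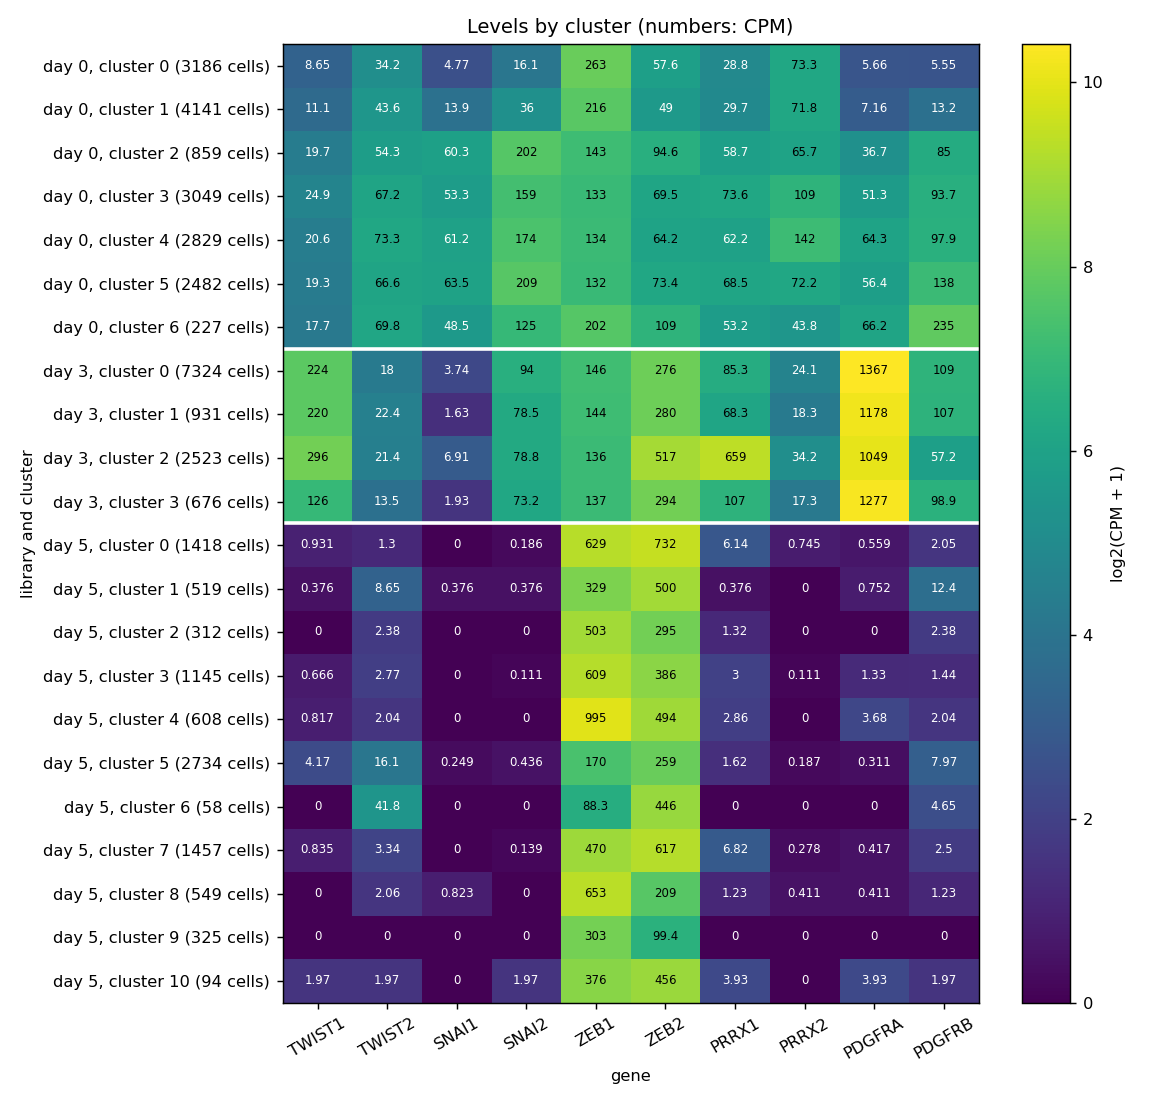
Levels of the 10 genes (columns) in each cluster (rows, library, cluster number and cells), coloured by log2(CPM + 1) with CPM printed in the cell. PRRX1 reaches 659 CPM in 1 of 4 day 3 clusters, PDGFRA is above 1000 in all 4, and at day 5 the ZEB columns alone keep levels above 50 CPM.

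Genes whose levels ran most like each member over the 22 clusters of the 3 libraries were sought among 6452 genes by Pearson correlation of log2(CPM + 1). Clusters of a library share its depth and preparation, so these are descriptions. PDGFRA ran with BDKRB2 (r = 0.99), a bradykinin receptor, and PTGS2 (0.98), the inducible prostaglandin synthase, which stood at 13.6, 546 and 0 CPM at days 0, 3 and 5. TWIST1 ran with CCL2 and MMP3 (both 0.98), a chemokine and a matrix protease, and PRRX1 with FGF7, a fibroblast growth factor, and DAZAP1 (both 0.95). PDGFRB ran with ITGA2 and FN1 (both 0.98), a collagen receptor chain and fibronectin, and TWIST2 with MICAL2 (0.96) and CDK16 (0.94). SNAI1 ran with LTBP2 and DKK3 (both 0.98), SNAI2 with STOM and FOXF2 (both 0.99), and PRRX2 with HOXB7 and HOXB6 (both 0.99). For ZEB2 the closest were NSRP1 (0.96) and FBXO32 (0.94), and for ZEB1 EYA2 and EBF2 (both 0.88), which were at or under 0.107 CPM at days 0 and 3. Among the members themselves, TWIST1 and PDGFRA were the most alike, with r of 0.97.

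Of 8 PDGF ligands and receptor modulators, 2 of 4 tested were higher and 1 lower at day 3 against day 0. Over all tested genes, 37.6% were higher and 19.1% lower in that comparison. From day 3 to day 5 these shares were 36.5% and 28.7%, and at day 5 against day 0, 49.1% and 26.0%. They are the background for every list count given here, and no list was tested against them. PLAT, the protease that can activate PDGF-C, went from 82.7 to 1672 CPM and LRP1, a PDGFRB-binding receptor, from 173 to 494, while NRP1 went from 89.5 to 23.6. At day 5, 2 of 5 tested were higher and 2 lower against each earlier day: the ligands PDGFC (211 CPM) and PDGFD (40.3) were higher, and PLAT (7.17) and LRP1 (43.2) were lower. With TMM the balance against day 0 turned to 1 higher and 3 lower of 5 at day 3 (median log2 ratio from 0.43 to -1.85) and 1 higher and 4 lower of 6 at day 5. Of 15 signal transducers downstream of the receptors, 7 were higher and 1 lower at day 3 against day 0, led by the adaptor GAB1 (5.02 to 25.8 CPM) and phospholipase PLCG1 (9.09 to 43.8). From day 3 to day 5, 3 were higher and 2 lower: the adaptor SHC1 went from 178 to 10.96 CPM and the exchange factor SOS1 from 52.2 to 304. Against day 0, day 5 had 7 higher and 3 lower of 15, near the shares over all tested genes (49.1% and 26.0%). The counts of the transducers against day 0 turn with the scaling, to 2 higher and 6 lower at day 3 and 2 higher and 4 lower at day 5 with TMM, and their medians go from 0.80 to -0.40 and from 0.79 to -0.34.

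Among 9 partners and inhibitors of TWIST, 2 of 7 tested were higher and 4 lower at day 3 against day 0. The ID proteins, which bind E proteins and so keep them from TWIST, were lower, with ID4 at 124 and 4.54 CPM, ID2 at 171 and 21.7 and ID1 at 554 and 115, while the E protein TCF4 went from 85.8 to 495. At day 5, 2 were higher and 2 lower against day 3, with TCF12, another E protein, at 1306 CPM against 102, and 2 higher and 4 lower against day 0. Of 13 cofactors and turnover enzymes of SNAI and ZEB proteins, 6 of 12 tested were higher and none lower at day 3, including EZH2 (21.9 to 87.4 CPM) and KDM1A (29.5 to 78.9), both chromatin enzymes, but with TMM none was higher and 2 were lower, and the median went from 0.87 to -0.33. From day 3 to day 5, 6 of 13 were higher and 1, CTBP1, lower (88.4 to 23.0 CPM), beside 36.5% and 28.7% of all tested genes. Against day 0, 9 were higher and 1 lower, beside 49.1% and 26.0%. FBXL14, a ubiquitin ligase subunit for SNAI1, went from 2.62 to 68.6 CPM between days 3 and 5, and GSK3B, the kinase that marks SNAI1 for decay, from 80.8 to 446. Genes with over 100000 bases of intron were higher at day 5 as a class (74.0% against day 3). The part of intron length in the day 5 levels of the list genes was not tested.

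Epithelial genes known as targets of these repressors were mostly under 10 CPM: of 20 such genes 3 were tested at day 3, with DSP and KRT18 lower, and 4 at day 5, of which OVOL2 (29.6 CPM, from 1 UMI at day 3), DSP (34.1) and KRT18 (23.3) were higher than at day 3 and none lower. Against day 0, OVOL2 and DSP were higher and KRT18 lower at day 5, which with TMM became 1 higher and 2 lower (median log2 ratio from 0.52 to -0.61). CDH1, which encodes E-cadherin, had 4, 1 and 7 UMIs at days 0, 3 and 5. Mesenchymal effector genes split at day 3, 6 higher and 8 lower of 24 with a median log2 ratio of -0.14 (2 higher and 15 lower with TMM), with TAGLN going from 1374 to 4.81 CPM and S100A4 from 106 to 912. At day 5, 16 of 23 tested were lower and 2 higher against day 3 (median -2.56), and 20 of 24 lower and 3 higher against day 0 (median -3.43), with COL6A3, a collagen VI chain, at 845, 1247 and 0.255 CPM. Of 26 other mesenchymal transcription factors, 4 of 14 tested were higher and 4 lower at day 3 (3 and 9 of 15 with TMM), with TCF21 going from 26.5 to 303 CPM. At day 5, 11 of 13 tested were lower and 1 higher against day 3 (median -6.60), with FOXF1 and FOXF2 at 0 UMIs. Against day 0, 11 of 13 were lower and 2 higher, 1 of them TBX18, at 11.4 CPM from 0 UMIs.

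**Figure D5:**
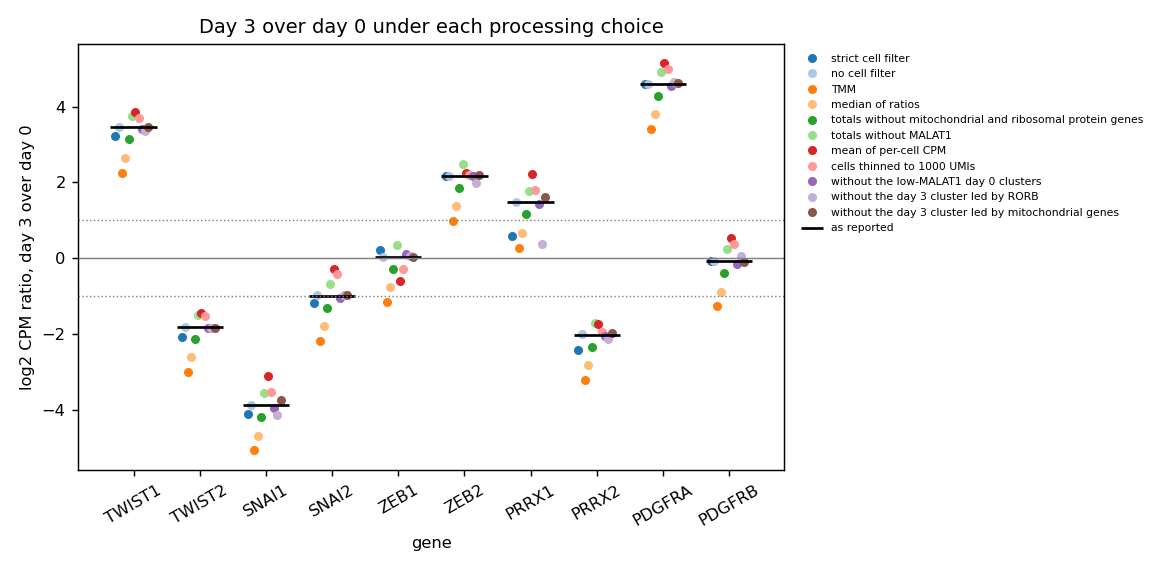
Log2 CPM ratio of day 3 over day 0 of each gene under each processing alternative (points) and as reported (black bars), with dotted lines at 2-fold. PDGFRA and TWIST1 stay above 2-fold and SNAI1, PRRX2 and TWIST2 below -1 under all of them, while SNAI2, ZEB2 and PRRX1 cross a line and ZEB1 and PDGFRB change sign.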

How the data were processed

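The authors deposited raw UMI counts per gene and barcode for each library, without normalization, and filtered day 0 and day 3 but not day 5 to cells (17504, 11488 and 2037119 barcodes, per the file headers). The submitters' processing notes name Cell Ranger 4.0.0 and hg38 (GRCh38); the software named in the matrix headers is not the same in each library. Day 5 barcodes were called as cells from 2154 UMIs, a limit set at 0.1 of the 99th percentile among the 10000 largest barcodes. Cells needed 500 UMIs, 300 genes and at most 20% mitochondrial UMIs. Scrublet in scanpy 1.11.5 marked 0, 1 and 1 cells, too few for the caller to have worked, and doublets were kept. UMIs were summed per library over 32732 shared genes, and a library under 3 UMIs was set at 3 in a ratio, which is 0.0122, 0.160 and 0.0589 CPM at days 0, 3 and 5. Each library was clustered alone (2000 variable genes, 30 components, 15 neighbours, Leiden resolution 0.5, igraph 0.11.9). Gene positions and introns came from GENCODE 29. The calling rule was tested on simulated data. Alternatives were other cell calls at day 5, a stricter filter (2000 UMIs, 1000 genes, 10% mitochondrial), no filter, TMM factors (edgeR 4.0.16 in R 4.3.3, used for nothing else), the median of ratios, other totals, per-cell means, thinning, CPM minimums of 5 and 50, and subtraction of the low-UMI profile.

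The 10 genes and all lists were chosen with earlier results of these data known. The genes named were the members, up to 4 genes per list with the largest log2 ratio at 10 CPM or more, and the 2 genes most like each member at 50 CPM or more. Genes leading a cluster, overlapping genes, CDH1 and the named oligodendrocyte precursor markers were added after their values were seen. The motifs and the limit of 100000 intron bases were also set after the data were seen. With 1 library per group, nothing measures the spread between cultures. Some genes picked by this rule are not reported here.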

Additional observations from a re-analysis of the deposited data

How the results depend on the processing

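Of the counts of called members under the alternatives, 80 stayed within 1.5 times of those reported and 4 did not. With TMM, 2 genes (TWIST1 and PDGFRA) were higher and 6 lower at day 3 against day 0, and 1 (ZEB2) was higher at day 5 against day 0. With the median of ratios, also 1 gene (ZEB2) was higher at day 5 against day 0. These scalings moved the median log2 ratio of 14626 genes with at least 10 UMIs in each library from 0.81 to -0.39 (TMM) and to near 0 (median of ratios) at day 3 against day 0, and from 0.71 to -0.42 and 0.05 at day 5 against day 0. No ratio called as reported changed its sign under any alternative run. Of the single ratios and cell shares under the alternatives, 244 stayed within the counting interval of the reported value and 216 did not. These include cell shares unthinned or thinned to other depths. From day 3 to day 5 no member's call changed, except that a minimum of 50 CPM leaves TWIST2 and PRRX2 untested (18.8 and 24.5 CPM at day 3). Leaving out the day 0 or day 3 clusters was an alternative chosen after seeing the data. At day 5, up to 15.6% of the cells' UMIs could be subtracted as the profile of the low-UMI barcodes before a gene at 50 CPM or more, TAGLN, went below 0. No paired analysis was possible because each group is 1 library, and for the same reason no library could be left out.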
